A study of Mus musculus with 6 samples.

Results

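The granins and the enzymes that mature prohormones are the cargo and the processing machinery of dense-core granules, the regulated secretory vesicles of neuroendocrine cells. They were followed here as 10 genes, chosen by symbol with earlier results of these data known. These were the granins Chga, Chgb, Scg2 and Scg3, the convertases Pcsk1 and Pcsk2, their partners Scg5 and Pcsk1n, the carboxypeptidase gene Cpe, and Resp18. All 10 were found among the 24391 genes of the annotation, and all 10 had enough counts to be tested. RNA was sequenced from mRPMaxKO, a mouse line from a lung tumour that lacked Rb1, Trp53 and Max, grown for fewer than 20 passages and of mixed 129/SvJ and C57BL/6 background. The 3 control and 3 MAX restored libraries both came from polyclonal, puromycin-selected cells that carried a doxycycline-inducible lentiviral vector, and both are labelled with the same 4 days of doxycycline. The labels do not say what the control vector carried, whether the controls did receive doxycycline, or whether each library stands for a culture of its own, so the p-values speak only of how these samples vary, and that variation may be technical. All 6 libraries share the line of origin, in which Max was lost, so no library shows a tumour that kept Max from the start. The comparison asks which granule transcripts change when MAX is put back.

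Granins are acidic proteins that aggregate with hormone precursors in the trans-Golgi network, help to form the granule and are themselves cut into peptides. The convertases PC1/3 (Pcsk1) and PC2 (Pcsk2) cut precursors after pairs of basic residues, and carboxypeptidase E then trims the exposed basic residues. 7B2 (Scg5) is the chaperone and inhibitor of PC2, and proSAAS (Pcsk1n) an inhibitor of PC1/3. Chromogranin A is a standard marker of pulmonary neuroendocrine cells and of the small cell lung cancers that resemble them.

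Libraries held between 10046899 and 11925909 counts. Max itself, the check of the labels, had between 620 and 691 counts in the controls and between 13369 and 15979 in the MAX restored libraries. The rise was 20.9-fold. Per length of exon Max ranked 3045 among 18279 genes with a count in the controls and 14 with MAX restored. The source of the Max counts in the controls was not tested. Control 1 stood apart, with a chi-square per degree of freedom of 8.91 and 10.2 against the other controls where other pairs within a group lay between 1.24 and 1.505, and leaving it out changed the call of none of the 10 genes. The 10 neuroendocrine markers other than granins, among them Syp, Uchl1, Ncam1, Calca and Insm1, were all tested and summed to between 9317 and 9606 CPM in the controls and between 8816 and 9032 CPM with MAX restored, where CPM is a count scaled to its library's size after TMM normalization. Of 12 fibroblast markers 2 were tested, with all 12 summing to between 4.89 and 5.22 CPM in the controls and between 6.89 and 7.85 CPM with MAX restored, and Lum had no count. The 10 immune markers summed to 1.49 to 2.95 CPM in the controls and 2.60 to 3.52 CPM with MAX restored, with Cd3e, Cd3g and Adgre1 at 0. Of 8 endothelial markers only Vwf was tested, at 559 and 432 CPM, and Cdh5, Tie1 and Cldn5 had no count. Of 7 lung epithelial markers 4 were tested, and the sum lay between 48.2 and 50.6 CPM in the controls and 47.9 and 54.0 CPM with MAX restored. Within that sum Foxj1 rose from 3.72 to 8.497 CPM and Ager from 1.34 to 2.64 CPM, while Sftpc fell from 31.6 to 26.0 CPM. Of the fibroblast markers Pdgfrb, which passed the filter only through the MAX restored libraries, rose from 0.525 to 1.86 CPM and Tagln from 2.58 to 4.01 CPM. The part of these markers in the results was not tested.

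Of the 10 genes 7 rose, 1 fell and 2 did not pass the threshold of an adjusted p of 0.05 (edgeR's quasi-likelihood test, Benjamini-Hochberg adjustment over 12664 genes). Over all tested genes 31.2% were higher and 32.3% lower, so that 63.5% were called in either direction, and being called is by itself no mark of these genes. In the same 8 genes the groups were fully separate by CPM, 7 higher and 1 lower, against 33.2% and 33.8% of all tested genes (67.1% in either direction). The size of the rises was further from the background: 4 of the 10 rose by at least 1.5-fold, against 11.9% of tested genes, and 2 by at least 2-fold, against 6.15%. The median log2 fold change of the 10 was 0.43, beside -0.0036 over all tested genes. The 10 genes were chosen with earlier results of these data known, so these contrasts describe the set and are no test of it. The rises were graded, from Pcsk2, Scg2 and Chgb near 2-fold, through Cpe, Pcsk1n and Chga, down to Resp18. Pcsk1 and Scg5 were the 2 that did not pass, and Scg3 fell. Together the 10 genes took between 0.414% and 0.418% of all counts in the controls and between 0.536% and 0.545% with MAX restored. In bulk RNA a change in the share of cells that express a gene and a change in RNA per cell cannot be told apart.

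**Figure D1:**
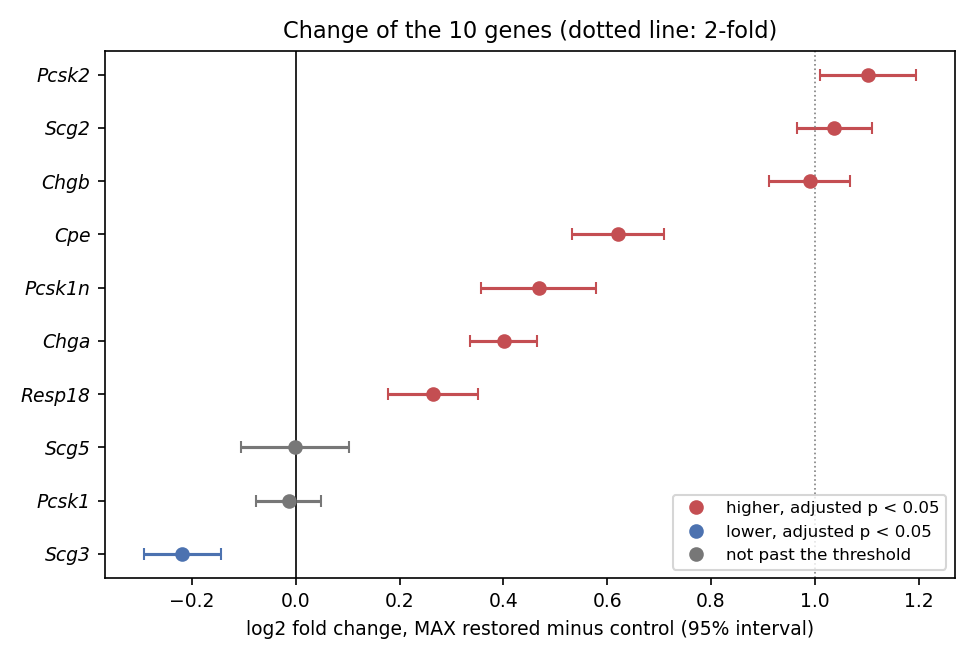
log2 fold change of each of the 10 genes, MAX restored minus control, with its 95% interval from the fit across all genes; colour shows the call. Pcsk2, Scg2 and Chgb lie around the dotted line at 2-fold, Scg5 and Pcsk1 straddle 0, and only the interval of Scg3 lies wholly below 0.

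Chga encodes chromogranin A, the granin most used as a neuroendocrine marker. Its 8 exons span chromosome 12 from 103793179 to 103803237 (mm9, plus strand), and all gene positions below are of that build. Its level was 1305, 1262 and 1240 CPM in controls 1, 2 and 3, and 1704, 1680 and 1641 CPM in MAX restored libraries 1, 2 and 3. Every MAX restored library lay above every control. The rise was 1.32-fold (log2 0.40, SE 0.03, adjusted p = 9.7e-10). Chga was already abundant: by CPM per kilobase of exon it ranked 14 among 18279 genes with a count in the controls and 4 with MAX restored.

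Chgb encodes chromogranin B (secretogranin I) and lies on chromosome 2 from 132607014 to 132620808 on the plus strand, with 5 exons. It stood at 210, 215 and 220 CPM in the controls and at 435, 420 and 424 CPM with MAX restored. The spread within each group was at most 1.05-fold, while the groups differed by 1.99-fold (log2 0.99, SE 0.04, adjusted p = 1.56e-14). Scg2, secretogranin II, the precursor of secretoneurin, lies on chromosome 1 from 79431244 to 79436665 on the minus strand and has 2 annotated exons. Its controls held 295, 305 and 313 CPM and its MAX restored libraries 639, 619 and 615 CPM. The groups were well separated, and the rise was 2.05-fold (log2 1.04, SE 0.03, adjusted p = 2.57e-15).

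Scg3, secretogranin III, which binds chromogranin A and cholesterol-rich granule membrane, went the other way. The gene lies on chromosome 9 from 75491173 to 75531863 on the minus strand, with 12 exons. Control values were 405, 387 and 394 CPM, and MAX restored values 333, 338 and 349 CPM. The lowest control lay above the highest MAX restored library. The fall was 1.16-fold (log2 -0.22, SE 0.04, adjusted p = 2.49e-05), the only fall among the 10 genes.

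**Figure D2:**
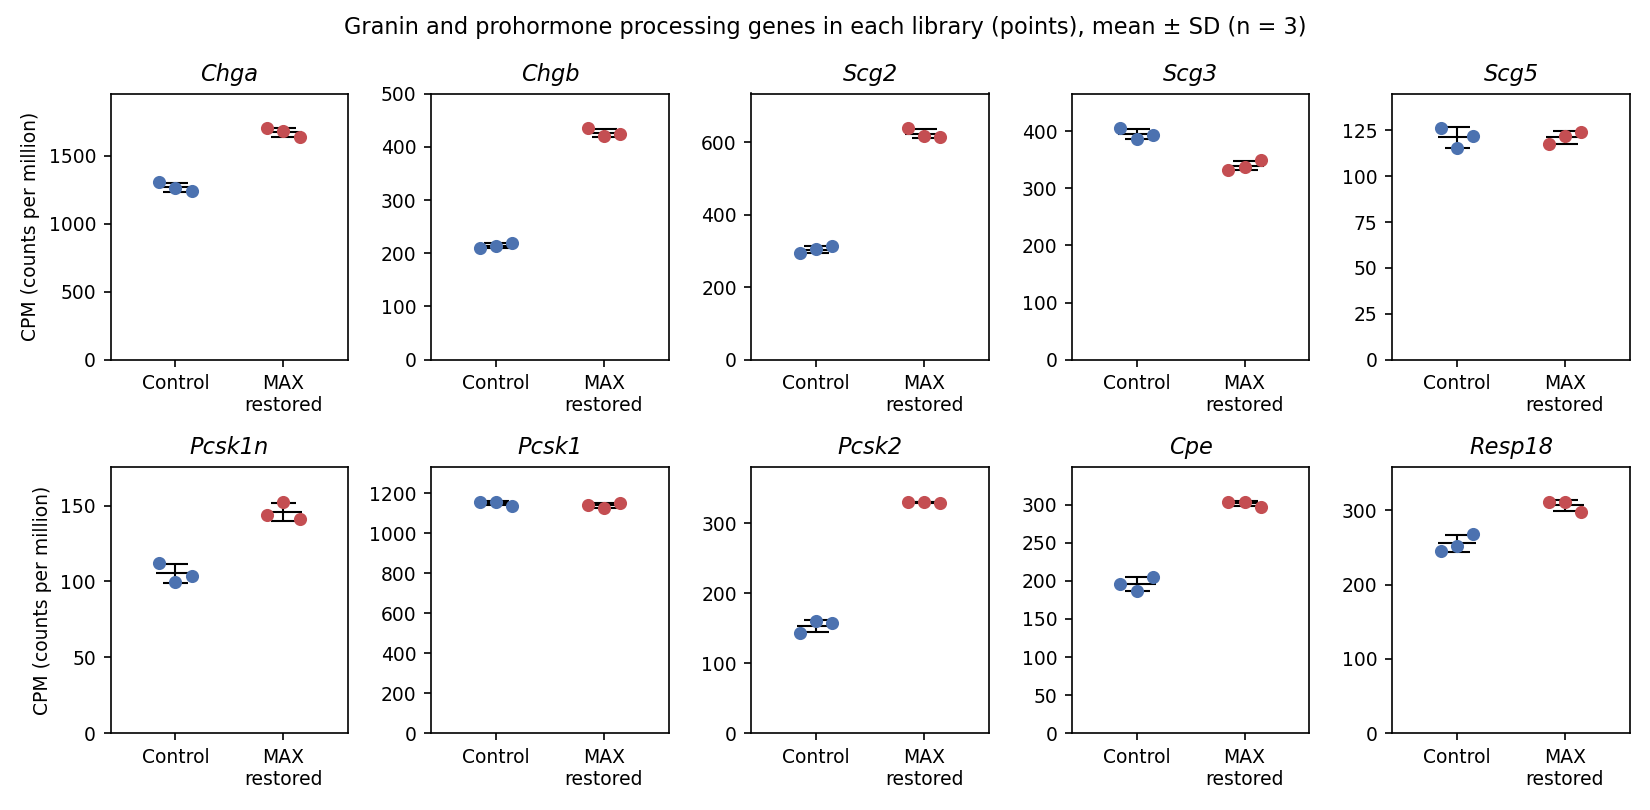
CPM of each gene in the 3 control and 3 MAX restored libraries (points), with the group mean and SD (black); every axis starts at 0. The groups are separate in 8 of the 10 panels, and overlap for Scg5 and Pcsk1.

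The 2 convertases differed from each other. Pcsk1 (chromosome 13 from 75227435 to 75269946, plus strand, 14 exons) gave 1155, 1159 and 1139 CPM in the controls and 1141, 1128 and 1151 CPM with MAX restored. The groups overlapped. Its log2 fold change was -0.01 (SE 0.03, adjusted p = 0.696) with a 95% interval from -0.08 to 0.05, that is, 0.95 to 1.03 times the control level. This interval lies wholly below that of Pcsk2, which starts at 1.01.

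Pcsk2 (chromosome 2 from 143371869 to 143642018, plus strand, 12 exons) gave 144, 160 and 157 CPM in the controls. With MAX restored it gave 331, 331 and 329 CPM, a spread of 1.01-fold between libraries. It showed the largest change of the 10 genes, 2.15-fold (log2 1.10, SE 0.04, adjusted p = 4.23e-14). Leaving out control 1, the lowest control, gave a log2 fold change of 1.05. The annotation places 2 minus-strand genes over exons of Pcsk2, Pcsk2os1 sharing 260 bases and Pcsk2os2 sharing 77, and counting without strand cannot separate such reads. Pcsk2os1 itself had between 81 and 87 counts in the controls and between 120 and 140 with MAX restored, and Pcsk2os2 at most 26 in any library, where Pcsk2 had at least 1460.

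The convertases' partners also split. Scg5 (chromosome 2 from 113616470 to 113669248, minus strand, 6 exons) was measured at 126, 115 and 122 CPM in the controls and at 117, 122 and 124 CPM with MAX restored. The groups overlapped and the 2 means were both 121 CPM. The log2 fold change was -0.0009 (SE 0.05, adjusted p = 0.988), with a 95% interval from -0.10 to 0.10, or 0.93 to 1.07 times the control level. Pcsk1n (chromosome X from 7496948 to 7501536, plus strand, 3 exons) rose from 112, 99.9 and 104 CPM to 144, 153 and 141 CPM. The change was 1.38-fold (log2 0.47, SE 0.05, adjusted p = 2.31e-07), with no overlap between groups. It shares 135 bases of exon with Eras on the minus strand, which had at most 1 count in any library.

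Cpe, whose product carboxypeptidase E removes basic residues from the ends of cleaved peptides, lies on chromosome 8 from 67071349 to 67171837 on the minus strand, with 9 exons. Control values were 197, 187 and 205 CPM and MAX restored values 304, 304 and 297 CPM. The rise was 1.54-fold (log2 0.62, SE 0.04, adjusted p = 1.5e-10), with no overlap between groups. Resp18, a granule protein related in sequence to the receptor-type phosphatase-like protein IA-2, lies on chromosome 1 from 75268777 to 75274955 on the minus strand, with 6 exons. It went from 246, 252 and 269 CPM to 311, 312 and 298 CPM, the smallest of the 7 rises (1.20-fold, log2 0.26, SE 0.04, adjusted p = 1.44e-05). Its groups did not overlap either.

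Per length, the genes kept a wide range and changed order. In CPM per kilobase of annotated exon, control means ran from Chga at 674 ± 17.6 through Pcsk1 at 457 ± 4.21, Resp18 at 360.02 ± 16.5, Scg3 at 179 ± 4.23 and Scg2 at 122 ± 3.70 (SD, n = 3 each). Scg5 followed at 98.8 ± 4.50, Cpe at 93.8 ± 4.42, Chgb at 78.5 ± 1.81, Pcsk1n at 48.0 ± 2.92 and Pcsk2 at 32.4 ± 1.85 on the same per-length scale. Of these neighbours only Scg5 and Cpe overlapped between libraries. With MAX restored Scg2 stood at 251 ± 5.26, above Scg3 at 154 ± 3.81, and Chgb at 156 ± 2.93 and Scg3 overlapped. Cpe at 144 ± 1.79 now lay above Scg5 at 98.7 ± 2.80. Pcsk2 at 69.6 ± 0.238 had come level with Pcsk1n at 66.4 ± 2.77, and these 2 overlapped. Per-length levels rest on the exon lengths of the annotation, which were not checked against the transcripts these cells make.

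**Figure D3:**
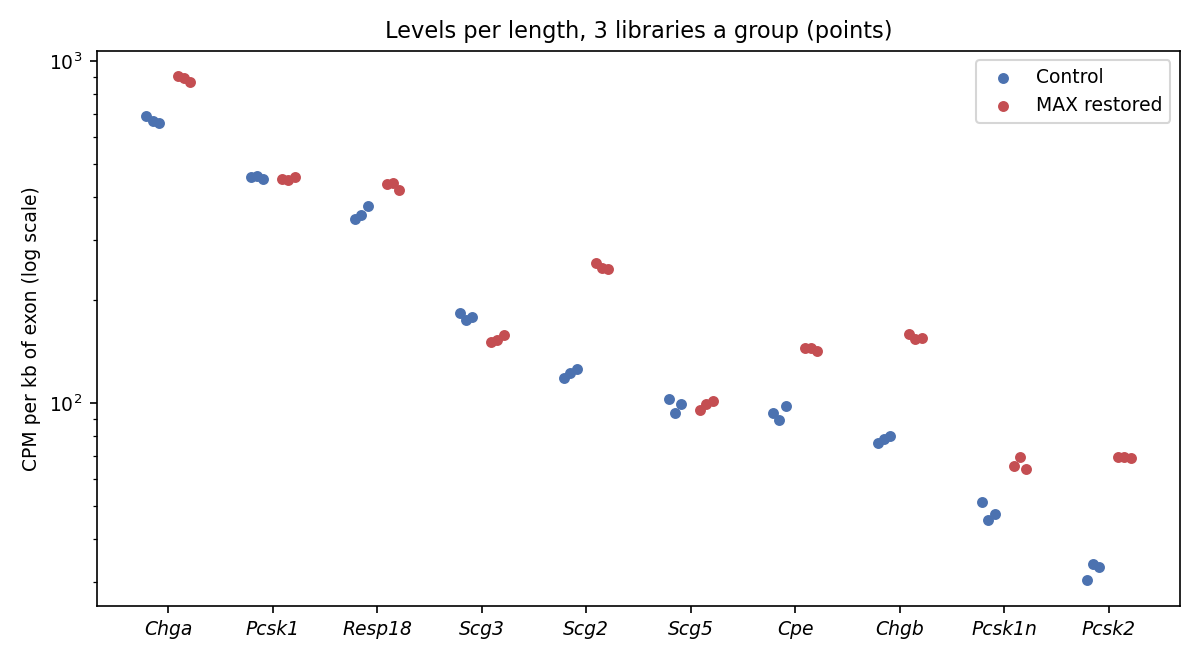
CPM per kilobase of exon in each library (points, log scale), genes ordered by their control mean. Chga is highest and Pcsk2 lowest in the controls; Scg2 lies below Scg3 in the controls and above it with MAX restored.

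The make-up of the granin pool shifted accordingly. Of the summed per-length level of the 4 granins, Chga made up 63.9% ± 0.775 in the controls and 61.3% ± 0.419 with MAX restored (SD, n = 3). Scg3 went from 17.0% ± 0.218 to 10.6% ± 0.406, Scg2 from 11.6% ± 0.514 to 17.3% ± 0.141 and Chgb from 7.45% ± 0.275 to 10.7% ± 0.127. Scg3 was thus second to Chga in the controls and level with Chgb after MAX was restored. Of the 2 convertases together, Pcsk2 made up 6.62% ± 0.366 of the per-length level in the controls and 13.3% ± 0.155 with MAX restored. Pcsk1 remained the main convertase transcript in all 6 libraries, at 86.5% or more.

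Ratios of 2 genes within a library do not depend on library scaling and were taken for 5 pairs. Pcsk2 over its chaperone Scg5 was 1.14, 1.39 and 1.29 by counts in the controls and 2.81, 2.72 and 2.65 with MAX restored. Pcsk1 over its inhibitor Pcsk1n moved down, from 10.3, 11.6 and 10.98 to 7.94, 7.39 and 8.16. Thus the convertase gained on its partner in the PC2 pair and lost to it in the PC1/3 pair. Pcsk2 over Pcsk1 went from 0.125, 0.138 and 0.138 to 0.290, 0.294 and 0.286. Scg2 over Scg3 showed the widest shift, from 0.727, 0.788 and 0.794 to 1.92, 1.83 and 1.76, a log2 difference of 1.26. Chgb over Chga went from 0.161, 0.170 and 0.177 to 0.255, 0.250 and 0.259. In none of the 5 did the groups overlap. Each pair holds a gene that was called by itself, so this is no separate evidence of change. Each gave p = 0.1 in an exact permutation test (two-sided, 3 against 3 libraries, and 0.1 after Benjamini-Hochberg adjustment over the 5), the smallest value this design allows. The pairs were chosen with some of these genes' changes already known.

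**Figure D4:**
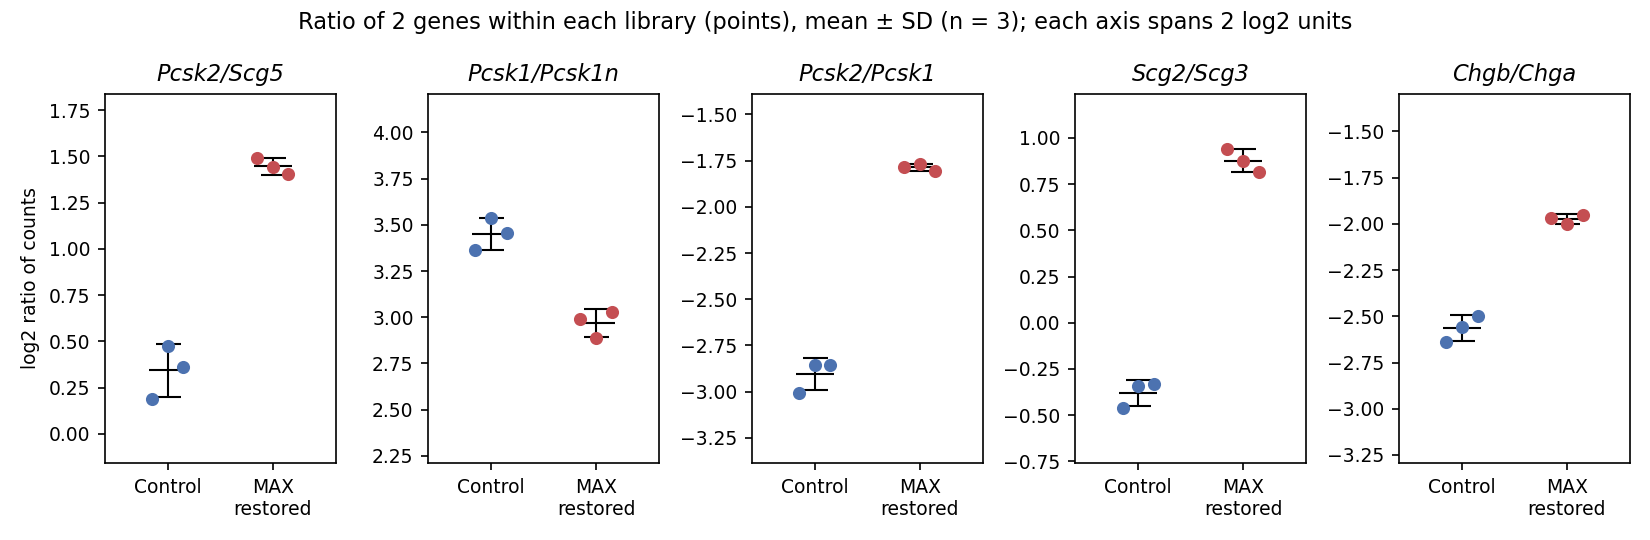
log2 ratio of the counts of 2 genes in each library (points), with group mean and SD; each panel spans 2 log2 units. The ratio of Pcsk1 to Pcsk1n is lower with MAX restored, and the other 4 ratios are higher.

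Promoter sequences are shown because MAX heterodimers bind the E-box CACGTG and because granin promoters are known for a cyclic AMP response element, TGACGTCA. The 250 bases before the RefSeq start site (GRCm38.p6) were found for 9 of the 10 genes, Cpe being the exception. None of the 9 held CACGTG, which is present in 6.02% of all 32851 such windows and in 6.86% of the 27025 genes they belong to. TGACGTCA was found in 3 of the 9, Chgb, Scg2 and Pcsk1, beside 1.55% of all windows and 1.77% of genes. It begins 72 bases before the start in Chgb, 68 in Scg2 and 78 in Pcsk1. Both motifs read the same on both strands. Chga held instead TGACGTAA, beginning 44 bases before its start and searched for only after the sequences had been seen. This form was found on either strand in 0.447% of windows and in 0.525% of genes. No other near-match was counted over all windows. The window of Scg3, the gene that fell, holds TGACGCCA, which also differs from TGACGTCA at a single letter. The sequences of Chgb, Scg2, Pcsk1, Chga and Pcsk2 run 5′ to 3′ along the gene's strand, with capitals marking TGACGTCA or TGACGTAA. Pcsk2 rose most and held none of the motifs searched for.
Chgb, chr2:132781392-132781641, plus strand: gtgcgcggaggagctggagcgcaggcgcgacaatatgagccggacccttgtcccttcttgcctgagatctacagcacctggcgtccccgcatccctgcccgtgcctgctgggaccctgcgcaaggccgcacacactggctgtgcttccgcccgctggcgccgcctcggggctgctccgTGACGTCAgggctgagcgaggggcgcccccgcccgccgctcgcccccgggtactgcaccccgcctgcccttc
Scg2, chr1:79440027-79440276, minus strand: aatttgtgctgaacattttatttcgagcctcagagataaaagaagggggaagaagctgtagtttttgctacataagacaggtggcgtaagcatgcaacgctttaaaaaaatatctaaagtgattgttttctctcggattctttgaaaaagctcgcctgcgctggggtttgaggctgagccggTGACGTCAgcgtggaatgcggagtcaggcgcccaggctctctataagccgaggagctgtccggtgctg
Pcsk1, chr13:75089607-75089856, plus strand: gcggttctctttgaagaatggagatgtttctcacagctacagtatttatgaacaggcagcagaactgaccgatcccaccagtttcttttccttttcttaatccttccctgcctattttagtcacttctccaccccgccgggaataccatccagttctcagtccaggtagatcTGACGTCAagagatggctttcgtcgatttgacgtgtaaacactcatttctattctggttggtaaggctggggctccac
Chga, chr12:102554691-102554940, plus strand: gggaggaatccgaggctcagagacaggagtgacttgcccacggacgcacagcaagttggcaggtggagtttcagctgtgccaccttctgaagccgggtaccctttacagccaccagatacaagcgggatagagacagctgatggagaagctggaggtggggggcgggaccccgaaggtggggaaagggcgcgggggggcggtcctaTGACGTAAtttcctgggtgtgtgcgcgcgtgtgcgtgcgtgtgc
Pcsk2, chr2:143545883-143546132, plus strand: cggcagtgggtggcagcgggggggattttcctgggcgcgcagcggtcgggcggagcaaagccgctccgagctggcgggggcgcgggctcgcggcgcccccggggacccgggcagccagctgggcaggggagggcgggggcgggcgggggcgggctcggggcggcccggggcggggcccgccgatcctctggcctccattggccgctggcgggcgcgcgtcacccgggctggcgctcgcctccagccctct
Genes with TGACGTCA in this window thus included the granins Scg2 and Chgb, which rose about 2-fold, and Pcsk1, which did not pass the threshold. Pcsk2 has the most GC-rich window of the 9, at 82.4% against a median of 52.4% over all windows, and Pcsk1 the least, at 46.8%. A match of letters is a description and shows no binding, and the files hold no binding data.

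The surroundings of the genes differed. Up to 25 tested genes on each side of a gene in mm9 order were taken as its neighbours, 49 in all for Pcsk1n and 50 for each of the others. They had a median log2 fold change between -0.03 and 0.07 around Chga, Chgb, Scg2, Scg3, Pcsk1n, Pcsk2 and Resp18. Around Cpe the median was 0.12, with 24 of 50 neighbours higher and 12 lower. The rise of Cpe, at 0.62, was larger than this median, and the part of its surroundings in it was not tested. Around Pcsk1 the median was -0.22, with 26 of 50 neighbours lower and 5 higher, and around Scg5 it was -0.13, with 22 lower and 10 higher. The 2 genes that did not pass the threshold have the lowest neighbourhood medians of the 10, while Scg3, the gene that fell, has 0.02. The part of the surroundings in these results was not tested. Over all placed genes the 5th and 95th percentiles of such medians were -0.16 and 0.16. Only the median around Pcsk1 lay outside this range, while those around Scg5 and Cpe lay within it. Called higher were 31.2% of all tested genes, and 32.3% were called lower. The neighbourhoods of Chgb and Pcsk2 on chromosome 2 overlap, as do those of Scg2 and Resp18 on chromosome 1. In both pairs each gene is itself a neighbour of the other, so its change enters the other's median.

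Other genes of the same pathway moved less uniformly. Among 20 further convertases and peptide-trimming enzymes 18 were tested (median log2 fold change 0.02). Of these 6 rose (33.3%, beside 31.2% over all tested genes), 5 fell (beside 32.3%) and 7 did not pass. Pam, the enzyme that amidates peptide ends after carboxypeptidase E has acted, rose from 305 ± 2.49 to 509.9 ± 9.87 CPM (SD, n = 3; log2 0.74, SE 0.03, adjusted p = 2.46e-13). Ece1, endothelin-converting enzyme 1, rose from 514 ± 32.3 to 795 ± 3.42 CPM (log2 0.63). Qpct, which forms pyroglutamate at peptide ends, rose from a low level, 2.25 ± 0.699 CPM, to 6.78 ± 0.0322 CPM (log2 1.59). Furin, the convertase of the constitutive pathway, did not pass the threshold (log2 0.09, SE 0.05, adjusted p = 0.11).

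Of 38 peptide hormone and neuropeptide precursors only 11 had enough counts to be tested, and 11 others had no count in any library. A count of 0 over all 64089822 counts allows up to 0.0468 CPM (3 counts, counting error only). Nmu, Trh and Ghrl would not have passed the filter on low counts without the MAX restored libraries. No count of changes and no median is therefore given for the 11. Cartpt, the CART precursor, rose from 9.16 ± 0.442 to 43.2 ± 1.799 CPM (SD, n = 3; 4.72-fold, adjusted p = 1.97e-14). Nmu, neuromedin U, had 0, 1 and 0 counts in the controls and 20, 24 and 13 with MAX restored. Vgf, a granin-like precursor, fell from 289 ± 9.89 to 209.9 ± 3.24 CPM (log2 -0.46, SE 0.04). Bdnf fell from 32.2 ± 1.69 to 16.9 ± 0.461 CPM (log2 -0.93, SE 0.08). Calca, the calcitonin and CGRP precursor of pulmonary neuroendocrine cells, was named after its values were seen. It rose from 2563 ± 84.5 to 2826 ± 75.2 CPM (log2 0.14, SE 0.03).

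Of 29 genes of the granule membrane and of granule formation 27 were tested, and 11 rose, 6 fell and 10 did not pass (median log2 fold change 0.03). Slc18a1, the vesicular monoamine transporter VMAT1, rose from 66.6 ± 1.89 to 151 ± 0.781 CPM (SD, n = 3; log2 1.18, SE 0.05). Its relative Slc18a2, VMAT2, named after its values were seen, fell from 9.94 ± 0.516 to 6.23 ± 1.004 CPM. Cadps, the CAPS priming factor of granule exocytosis, rose from 62.6 ± 2.73 to 131 ± 3.75 CPM (log2 1.06, SE 0.05). Cyb561, the granule membrane cytochrome, fell by 0.40 on the log2 scale and Dmxl2, a regulator of the vesicle proton pump, fell by 0.49. The share of tested genes called higher was 33.3% among the enzymes and 40.7% among these granule genes, beside 31.2% over all tested genes. Called lower were 5 of 18 enzymes and 6 of 27 granule genes, beside 32.3% over all tested genes.

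**Figure D5:**
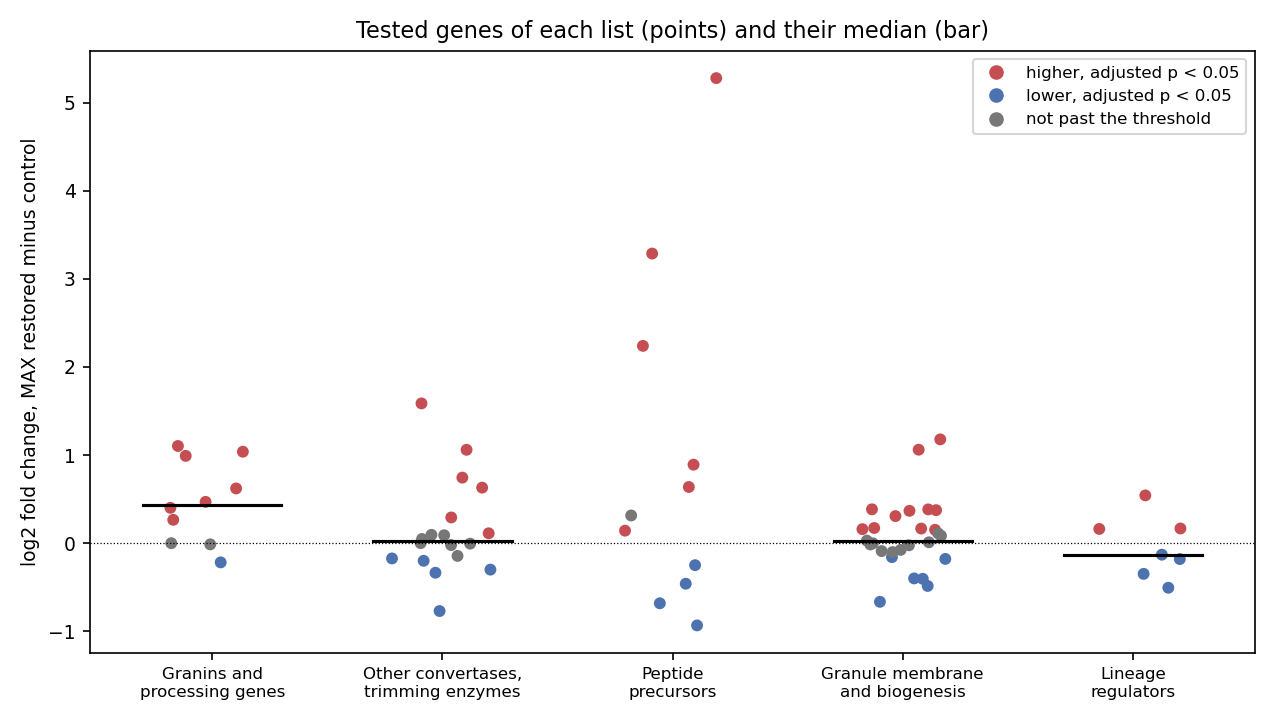
log2 fold change of each tested gene (points) in the 10 granin and processing genes and in 4 lists of related genes; bars are medians (none is drawn for the peptide precursors) and colour shows the call. The bar of the 10 genes lies at 0.43, above those of the enzyme, membrane and regulator lists at 0.02, 0.03 and -0.13. The 10 genes and the lists were chosen with earlier results of these data known. Nmu is the highest point of the precursors, from 1 control count.

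Among 10 lineage regulators 7 were tested, with 3 higher (42.9%, beside 31.2% over all tested genes) and 4 lower (beside 32.3%), and a median log2 fold change of -0.13. Foxa1 rose from 349 ± 20.2 to 508 ± 2.53 CPM (SD, n = 3; log2 0.54). Nkx2-1 fell by 0.18 and Foxa2 fell by 0.35 on the log2 scale. Rest, the repressor of granin genes in other tissues, had between 2 and 5 counts in every library and was not tested.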

How the data were processed

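RNA from 3 control and 3 MAX restored libraries was sequenced after library preparation from 500 ng of total RNA with the Ultra RNA kit of New England BioLabs, per the labels, which does not mark strand. Tools listed in the submitters' processing notes are STAR 2.5.2a, bcl2fastq 1.8.4 and featureCounts of Subread 1.6.0, and the build is mm9. The authors deposited raw read counts for each gene, taken over exons of the UCSC annotation with the strand setting off, per the file headers, so reads shared with an antisense gene cannot be assigned.

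From these counts, genes were kept with edgeR 4.0.16's filterByExpr (minimum count 10), scaled by TMM and tested with its quasi-likelihood test (group only, two-sided, Benjamini-Hochberg over all 12664 genes tested, threshold 0.05) in R 4.3.3. The standard error is the absolute log2 fold change over the square root of F, and 95% intervals use the fit's degrees of freedom. Ratios took a pseudocount of 0.5 and were tested in scipy 1.17.1. No library was left out. The scripts were tested on simulated counts. The 13 alternatives cover scaling, filter, DESeq2 1.42.0, limma 3.58.1 voom, a replicate block and each library left out.

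The 10 genes, the related lists and the ratios were chosen with earlier results of these data known. Beside the 10 genes, each list names up to 4 members with the smallest p. Some genes this rule takes are not reported here. Calca, Furin, Slc18a2 and Rest were named after their values were seen. Promoter windows come from RefSeq on GRCm38.p6, and no coordinate of it was mixed with mm9.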

Additional observations from a re-analysis of the deposited data

How the results depend on the processing

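The counts of 7 higher and 1 lower among the 10 genes were the same under all 13 alternatives, and the counts over all genes and over the related lists stayed within 1.5 times. Scg5 and Pcsk1 did not pass the threshold under any, and their sign is not determined. Scg5, at -0.0009, came to 0.002 with DESeq2's size factors in edgeR and in the DESeq2 test, 0.0247 with upper quartile scaling and between -0.0378 (without control 2) and 0.0271 (without MAX restored 1) with 1 library left out. Pcsk1 came to 0.0115 with upper quartile scaling. No ratio changed direction when a library was left out. With 3 libraries a group and ratios tested by permutation, no ratio could pass 0.05. The members' counts lay between 1042 and 20282, while most peptide precursors were too rare to test.

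Replicate numbers are shared by the groups, but the labels do not say that they mark a pairing. Same-numbered libraries deviated from their group means with correlations of 0.004, 0.035 and -0.024. No MAX restored library correlated best with the control of its own number, and of the controls only control 2 correlated best with its own number. With the replicate block 3941 genes were higher and 4093 lower, against 3948 and 4092 without it, and the calls of the 10 genes were again 7 and 1.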
